A study of Mus musculus with 12 samples.

Results

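The SOCS family of feedback inhibitors was described in mouse aorta before and at day 3 of an infusion used to induce aortic dissection. Its 8 members, Socs1 to Socs7 and Cish, were taken as every probe whose gene name in the scanner files was a member, which gave 14 of 55681 non-control probes. Of these, 13 passed the filter on dim probes, and each of the 8 genes kept at least 1 probe among 22769 genes tested. A gene was represented by its brightest kept probe. In order of gene name the 8 representative probes lay, in mm9 coordinates, at chr9:107204196-107204255 for Cish, chr16:10783951-10784010 for Socs1, chr10:94875066-94875125 for Socs2, chr11:117827480-117827539 for Socs3, chr14:47911161-47911220 for Socs4, chr17:87536500-87536559 for Socs5, chromosome 18 for Socs6 and chr11:97259763-97259822 for Socs7. No annotation of that build was used, so the exon or UTR under each probe is not given.

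The series held 12 single-colour arrays of total RNA from aorta of male mice, with 3 arrays in each of 4 groups. WT mice were Socs3fl/fl littermates without Cre, and mice labelled smSocs3-KO were Socs3fl/fl with SM22-Cre, a recombinase transgene under a smooth muscle promoter; the strain label of all groups was 129S5/SvEvBrd, C57BL6 and SJL, and both genotypes carried the floxed allele, from a line backcrossed to C57BL/6J for 3 generations. Each genotype was sampled without infusion ("before") and after 3 days of β-aminopropionitrile (BAPN, an inhibitor of collagen and elastin cross-linking) at 150 mg/kg/day plus angiotensin II (AngII, a pressor peptide) at 1000 ng/kg/min from osmotic minipumps. The labels give neither the age of the mice nor whether each array came from a separate mouse, so p-values measure the spread between these samples.

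Cytokines such as interleukin-6 bind receptors that carry JAK kinases, and the JAKs phosphorylate STAT transcription factors. SOCS proteins are transcribed in response to STATs and close the loop: their SH2 domain binds phosphorylated receptors or JAKs, and their SOCS box recruits an elongin and cullin ubiquitin ligase. Cish, Socs1, Socs2 and Socs3 are the cytokine-induced members, whereas Socs4 to Socs7 are better known for acting on growth factor and insulin receptors.

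Among the representative probes of the 8 members, only that of Socs3 passed the test for a change with the challenge, and it rose. Of all genes, 22.7% passed the same test (limma, adjusted p under 0.05). A dimmer Socs6 probe passed too, as lower, in a test of single probes. STATs bind DNA at TTCNNNGAA, and RefSeq (GRCm38.p6) provided a window of 250 bases before to 50 bases after the transcription start for 4 of 8 members, namely Cish, Socs1, Socs3 and Socs4. The Socs3 window held 1 such motif, which is palindromic and reads alike on both strands, at positions -154 to -146 from the start. It is shown because Socs3 is the member whose representative probe passed, on the minus strand of chr11:117969487-117969545, with the motif in capitals.
Socs3: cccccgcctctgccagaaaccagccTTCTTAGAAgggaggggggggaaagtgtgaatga
The Cish window held 2 motifs, the first beginning at the start base itself and the second 11 bases further on. They are shown for comparison, on the plus strand of chr9:107296654-107296683, again with the motifs in capitals.
Cish: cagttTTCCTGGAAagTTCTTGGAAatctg
The Socs1 and Socs4 windows held none. Of all 32851 promoter windows of the same length, 8.30% held TTCNNNGAA. A match is a description of letters and not of binding.

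Before the results, 2 features of the arrays must be stated. All 6 WT arrays and replicate 1 of the uninfused smSocs3-KO group were on slide 1, and the other 5 smSocs3-KO arrays were on slide 2, so that at day 3 slide and genotype cannot be told apart. Within the WT day 3 group, replicate 4 stood apart from replicates 1 and 3 for some genes. Timp1, a secreted inhibitor of matrix metalloproteinases, had a log2 signal of 4.64 on replicate 4, of 7.62 and 7.52 on the other arrays of the group and of 3.03 to 3.23 on the WT arrays before infusion, whereas the elongin subunit Tceb1 was at 4.17 on replicate 4 and at 4.47 and 4.17 on the others. The calls of representative SOCS probes that replicate 4 decides, and the counts in the marker and pathway lists, are also given without it. Calls of single marker and pathway genes are those with it. Between 55.4% and 61.2% of spots were well above background, and arrays of the same group correlated at 0.964 to 0.992.

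Socs3, the inhibitor of gp130, leptin and G-CSF receptor signalling and the gene targeted in these mice, was examined first because it checks the labels. Levels are log2 signals counted from the array's own 75th percentile, and the Socs3 probe was well above background on 12 of 12 arrays. Before the infusion, Socs3 had a log2 signal of 0.30, 0.32 and 0.75 on the WT arrays and of 0.24, 1.14 and 1.46 on the arrays labelled smSocs3-KO. The lowest value thus belonged to a smSocs3-KO array, but so did the 2 highest, and the groups overlapped. The smSocs3-KO minus WT difference was 0.49 on the log2 scale (SE 0.53; limma adjusted p = 0.99995). The only smSocs3-KO array on the slide of the WT arrays, replicate 1, had the signal of 0.24 and thus differed by -0.21 from the WT mean, and a fit with slide as a block takes its value from that array alone.

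The mean Socs3 signal was thus not lower on the 3 arrays labelled smSocs3-KO, although it was on the 1 array that shared the WT slide. The labels describe a deletion in smooth muscle cells and the RNA was from aorta, and the sources used here do not give the extent of the floxed segment, so the probe may lie outside it and then checks nothing. In a bulk sample, fewer cells of a type and less RNA per cell cannot be told apart. The genotype is named below as the arrays are labelled.

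At day 3 of BAPN + AngII, Socs3 had a log2 signal of 2.21, 2.30 and 0.64 on the WT arrays. The first 2 lay above every WT array before infusion, whereas replicate 4 lay within their range. On the smSocs3-KO arrays the day 3 signal was 3.31, 2.28 and 4.13, each above every smSocs3-KO array before infusion. The group means, from low to high, were 0.45 ± 0.25 for WT before, 0.94 ± 0.63 for smSocs3-KO before, 1.72 ± 0.93 for WT at day 3 and 3.24 ± 0.93 for smSocs3-KO at day 3 (SD, n = 3 each). Each pair of neighbours in this order overlapped in its arrays.

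**Figure D1:**
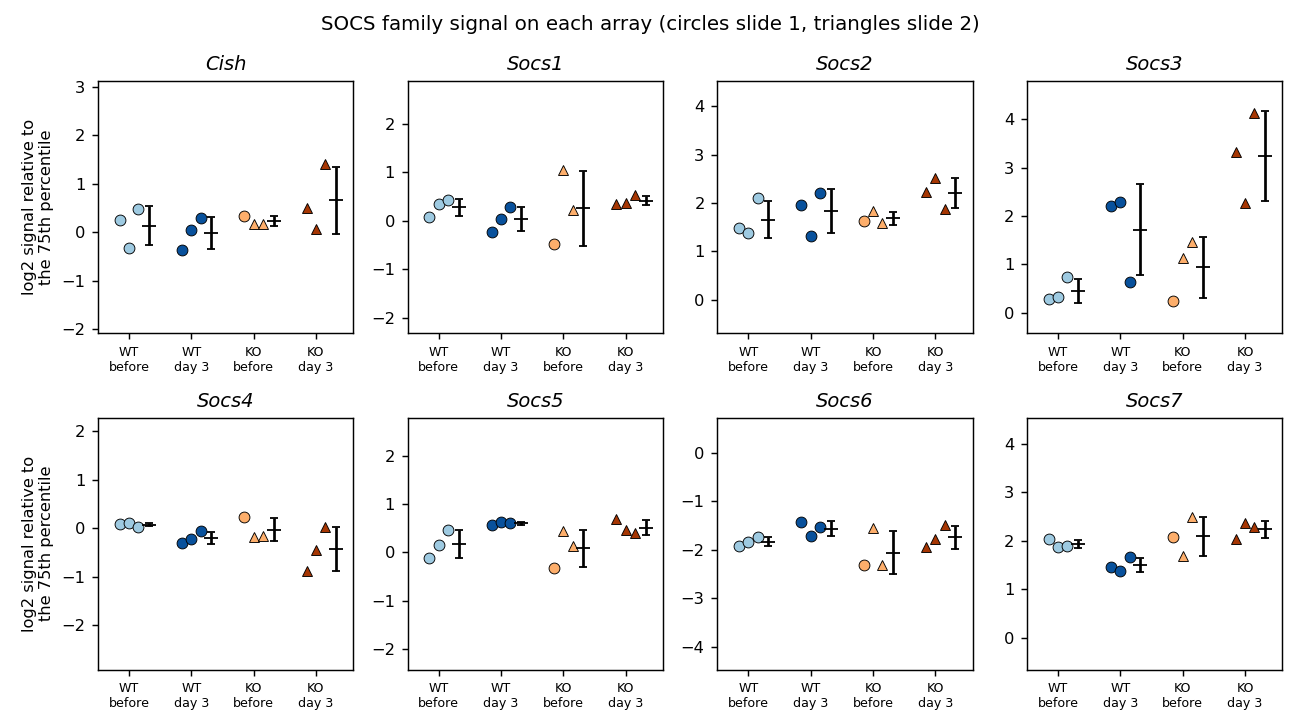
Log2 signal relative to the 75th percentile of the array (vertical axis, same span of 5.2 in each panel) for the 8 SOCS family members in the 4 groups. Each point is 1 array (circles on slide 1, triangles on slide 2), and bars give the mean and SD of 3 arrays. The day 3 smSocs3-KO arrays reached 2.28 to 4.13 for Socs3. Among the representative probes shown, the largest challenge response of any other member in either genotype was 0.52. A dimmer Socs6 probe, not shown, gave -1.05 in smSocs3-KO, where its day 3 signal lay near background.

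Over both genotypes, the Socs3 response to the challenge, taken as the mean of the WT and the smSocs3-KO response, was 1.78 on the log2 scale (SE 0.38), a 3.43-fold rise with a 95% interval of 1.92 to 6.11-fold and an adjusted p of 0.0115 in limma. Of all genes tested, 22.7% passed in this comparison and 13.6% passed as higher, so a single call among 8 members is near the background share. The smSocs3-KO response was 2.30 (SE 0.53), or 4.91-fold with an interval of 2.17 to 11.1-fold, and its adjusted p of 0.0522 missed the threshold. It met the rule of an unadjusted p under 0.01 with a change of more than 4-fold that the study's network analysis set, which 1.63% of genes met. The WT response was 1.26 (SE 0.53), or 2.40-fold with an interval of 1.06 to 5.43-fold (adjusted p = 0.163).

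The calls moved with single arrays. Without replicate 4 of the WT day 3 group, the WT response was 1.80 (adjusted p = 0.0351), and the smSocs3-KO response, whose estimate of 2.30 does not use that array, had an adjusted p of 0.0153 through the shared variance. Without replicate 3 of the smSocs3-KO day 3 group, the smSocs3-KO response was 2.78 (adjusted p = 0.0402). The mean response passed in each of the 12 fits that left out 1 array, at 1.56 to 2.05. In slide 2 alone, where 2 arrays before infusion faced 3 at day 3, the smSocs3-KO response was 1.94 (adjusted p = 0.159).

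**Figure D2:**
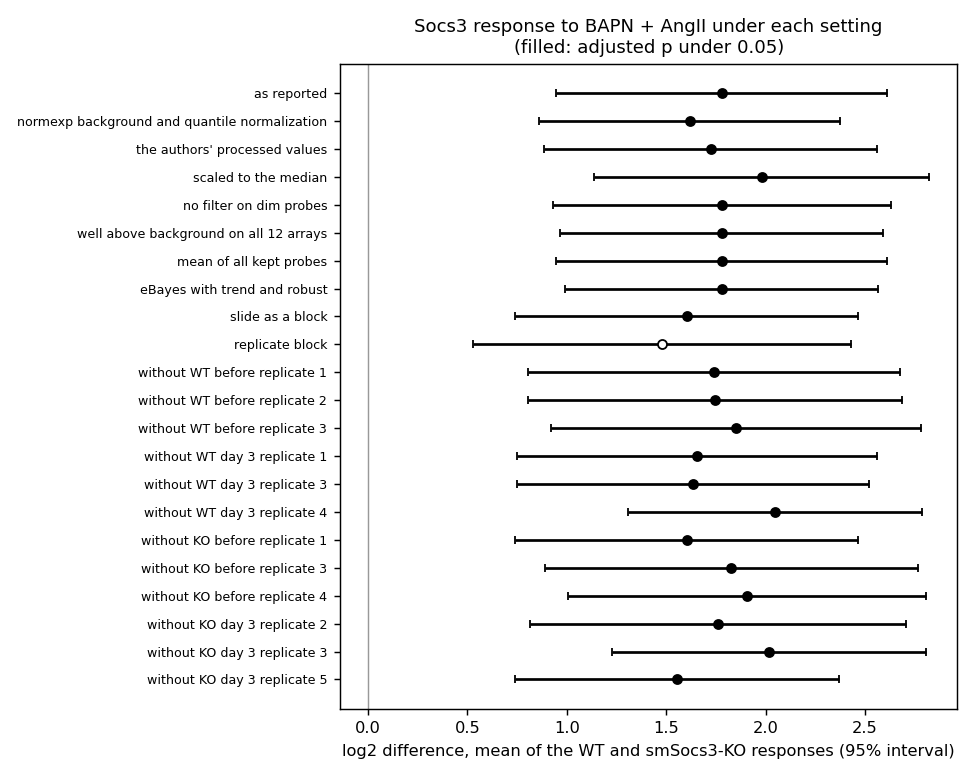
Socs3 response to BAPN + AngII as the mean of both genotypes (log2 difference, horizontal axis) with its 95% interval, as reported and under each of 21 alternative settings (vertical axis). Filled points passed an adjusted p of 0.05; the estimates ran from 1.48 with a replicate block, the open point, to 2.05 without replicate 4 of the WT day 3 group.

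At day 3 the Socs3 signal was 1.52 higher on the log2 scale on the arrays labelled smSocs3-KO than on the WT arrays (SE 0.53), a 2.88-fold difference with an interval of 1.27 to 6.52-fold and an adjusted p of 0.208 in limma. The groups overlapped narrowly, since the lowest smSocs3-KO array (2.28) lay just under the highest WT array (2.30). Without replicate 4 of the WT group the difference was 0.99 (adjusted p = 0.296). The difference between the 2 responses themselves was 1.03 (SE 0.76; adjusted p = 0.974). No gene passed that interaction test, and 5.34% had an unadjusted p under 0.05.

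Marker levels of other cell types were set beside Socs3 on the same arrays. The mean log2 signal of 7 macrophage and monocyte markers was 2.04 to 2.09 on the WT arrays before infusion and 2.11 to 2.49 on the smSocs3-KO arrays. At day 3 it was 3.74, 3.31 and 2.10 on WT replicates 1, 3 and 4. On smSocs3-KO replicates 2, 3 and 5 it was 3.84, 3.50 and 3.53. The WT day 3 array with the low Socs3 signal was thus also the one with the low macrophage level. The smSocs3-KO day 3 array with the highest Socs3 signal, replicate 5, did not have the highest macrophage level. Of these markers, 6 of 7 rose in the mean response, in which 13.6% of all genes rose and 9.18% fell, among them the lysosomal protein Cd68 (1.82, SE 0.31) and the chemokine receptor Ccr2 (2.09, SE 0.55), and all 7 were well above background on 12 arrays. The log2 of their summed signal was 7.59 to 7.90 before and 7.34 to 8.12 at day 3 in WT. In smSocs3-KO it was 7.12 to 8.38 before and 7.42 to 7.76 at day 3.

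The mean log2 signal of 6 tested neutrophil markers in WT was -0.73 to -0.11 before and -0.05 to 0.79 at day 3, and in smSocs3-KO it was -0.87 to 0.29 before and 0.22 to 2.17 at day 3. The highest WT day 3 value, 0.79, was that of replicate 4, where Socs3 was lowest. The summed signal of these markers did not rise with the mean. In WT its log2 was 8.23 to 8.60 before and 7.79 to 8.59 at day 3. In smSocs3-KO it was 7.57 to 8.70 before and 7.62 to 7.86 at day 3. Of these 6, 2 rose beside 13.6% of all genes, Ly6g and Mpo. Mpo was well above background on only 6 of 12 arrays, and among the 8 listed the granule protein Ngp on 0. Of 8 smooth muscle markers, all well above background on 12 arrays, 2 fell in the mean response, beside 9.18% of all genes: the myosin heavy chain Myh11 (-1.09, SE 0.23) and the transcriptional coactivator Myocd (-0.62, SE 0.19). The mean smooth muscle level in WT was 6.28 to 6.29 before and 5.59 to 6.36 at day 3, and in smSocs3-KO it was 6.21 to 6.63 before and 5.46 to 5.89 at day 3. The mean level of 6 tested lymphocyte markers went the other way in WT, at -0.84 to -0.45 before and -1.44 to -1.29 at day 3, and in smSocs3-KO it was -0.76 to -0.64 before and -1.58 to -0.38 at day 3; 1 of them, Cd3d, fell in the mean response. Without replicate 4 of the WT day 3 group, 6 macrophage and 2 neutrophil markers rose and 5 smooth muscle markers and 1 lymphocyte marker fell. In that fit 15.8% of all genes rose and 12.3% fell. The part of these cell types in the Socs3 result was not tested.

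**Figure D3:**
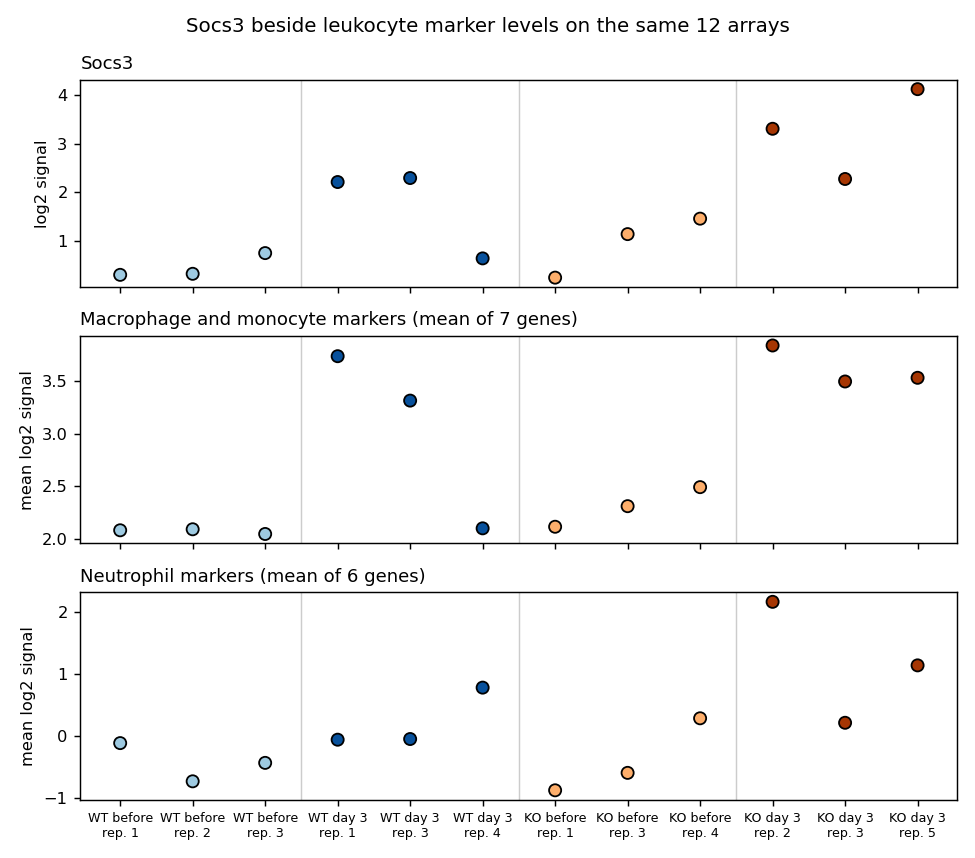
Log2 signal of Socs3 (top) and mean log2 signal of 7 macrophage and monocyte markers (middle) and 6 neutrophil markers (bottom) on each of the 12 arrays, relative to the 75th percentile of the array. Points are single arrays coloured by group; on WT day 3 replicate 4, Socs3 (0.64) and the macrophage markers (2.10) lay at the level of the arrays before infusion, whereas the neutrophil markers were at 0.79.

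Cish, the STAT5-induced member that dampens growth hormone and interleukin-2 signalling, did not pass in any comparison. Its log2 signal was 0.25, -0.32 and 0.47 on WT arrays before and -0.38, 0.05 and 0.29 at day 3, and 0.34, 0.17 and 0.17 on smSocs3-KO arrays before and 0.50, 0.06 and 1.41 at day 3. A single array, smSocs3-KO day 3 replicate 5, lay high. The WT response was -0.15 (95% interval -0.87 to 0.58), which turned to 0.044 when arrays were scaled to their medians and was -0.30 without replicate 4 of the day 3 group, and the smSocs3-KO response was 0.43 (-0.29 to 1.16).

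Socs1, the inhibitor of JAKs downstream of interferons, also passed in no comparison. Its log2 signal was 0.08, 0.34 and 0.42 on WT arrays before and -0.22, 0.04 and 0.29 at day 3, and -0.49, 1.06 and 0.22 on smSocs3-KO arrays before and 0.35, 0.38 and 0.52 at day 3. The smSocs3-KO arrays before infusion spread over 1.54, and 2 of those 3 arrays lay outside the range of the WT arrays before infusion. The responses were -0.24 in WT (95% interval -0.94 to 0.46) and 0.15 in smSocs3-KO (-0.55 to 0.86), and the latter was -0.22 within slide 2. At day 3 all 3 smSocs3-KO arrays lay above all 3 WT arrays, by a mean of 0.38 (SE 0.32; limma adjusted p = 0.602), a separation without overlap that 7.87% of genes showed in that direction.

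Socs2, the regulator of growth hormone receptor signalling, was the member measured by the most spots, with 10 replicate spots of its representative probe on each array. Its log2 signal was 1.49, 1.38 and 2.10 on WT arrays before and 1.97, 1.33 and 2.22 at day 3, and 1.63, 1.83 and 1.59 on smSocs3-KO arrays before and 2.23, 2.51 and 1.88 at day 3. In smSocs3-KO the groups did not overlap, a rise without overlap that 14.1% of genes showed, and the response was 0.52 (SE 0.27; limma adjusted p = 0.262). The WT response was 0.18 (SE 0.27), a size within the spread of either WT group, and -0.0082 without replicate 4 of the day 3 group. Another 2 Socs2 probes close by gave mean responses of 0.53 and 0.39, whereas a probe at chr10:94848005-94848064 gave -0.35 (SE 0.20), so the probes disagreed in direction; none of the 4 passed.

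**Figure D4:**
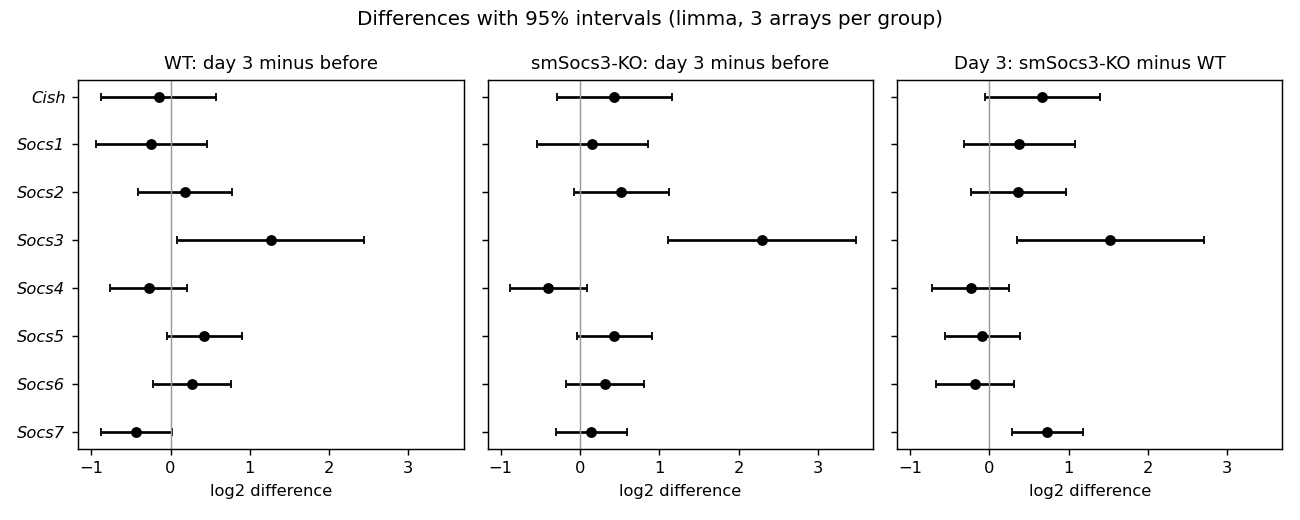
Log2 difference of the representative probe of each SOCS family member (points, with 95% intervals from limma) in the WT response, the smSocs3-KO response and the day 3 genotype comparison. Intervals that exclude 0 belonged to Socs3 in all 3 panels and to Socs7 in the genotype panel, and none of these passed an adjusted p of 0.05.

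Socs4 and Socs5, closely related members that bind the EGF receptor, had responses of opposite sign. Socs4 had a log2 signal of 0.08, 0.11 and 0.03 on WT arrays before and -0.30, -0.23 and -0.07 at day 3, without overlap, and of 0.24, -0.17 and -0.16 on smSocs3-KO arrays before and -0.88, -0.45 and 0.03 at day 3. Its mean response was -0.34 (SE 0.16; limma adjusted p = 0.133). Socs5 had a log2 signal of -0.11, 0.16 and 0.47 on WT arrays before and 0.57, 0.62 and 0.61 at day 3, again without overlap, and of -0.33, 0.45 and 0.13 on smSocs3-KO arrays before and 0.69, 0.46 and 0.40 at day 3.

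The Socs5 response was 0.43 in each genotype. Among the representative probes, its mean response of 0.43 (SE 0.15, limma adjusted p = 0.0630) was the nearest to the threshold after that of Socs3. It passed after normexp background correction with quantile normalization (0.37, adjusted p = 0.0475) and without replicate 3 of the smSocs3-KO group before infusion (0.52, adjusted p = 0.0296). Socs4 passed without replicate 5 of the smSocs3-KO day 3 group (-0.45, adjusted p = 0.0465).

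Socs6 and Socs7, which act on insulin and growth factor receptor substrates, completed the family. The Socs6 signal was -1.92, -1.85 and -1.74 on WT arrays before and -1.43, -1.72 and -1.54 at day 3, just without overlap, and -2.32, -1.55 and -2.32 on smSocs3-KO arrays before and -1.96, -1.79 and -1.49 at day 3. Its mean response was 0.29 (SE 0.16; limma adjusted p = 0.185). Across the 12 fits that left out 1 array, this response ran from 0.23 to 0.42. It passed as higher in 1 of them (lowest limma adjusted p = 0.0337). A dimmer Socs6 probe, well above background on 9 of 12 arrays, gave -0.81 (SE 0.12), which passed in the limma test of single probes (adjusted p = 0.00533). In that limma test it also passed in the smSocs3-KO response alone (-1.05, SE 0.18, adjusted p = 0.0232). Its WT response did not pass (-0.58, SE 0.18, limma adjusted p = 0.0786). The lowest signals of this probe, -4.61, -4.56 and -4.85, were those of the smSocs3-KO day 3 arrays. They lay near background, so the size of its fall is uncertain. Another Socs6 probe had a mean response of -0.13, so that the direction of Socs6 depends on the probe.

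Socs7 had a log2 signal of 2.04, 1.87 and 1.89 on WT arrays before and 1.47, 1.38 and 1.66 at day 3, and of 2.09, 1.70 and 2.50 on smSocs3-KO arrays before and 2.04, 2.37 and 2.29 at day 3. The WT day 3 arrays lay below every other Socs7 value. The WT response was -0.43 (SE 0.20; limma adjusted p = 0.200) and the smSocs3-KO response 0.14 (SE 0.20). At day 3 Socs7 was 0.73 higher on the smSocs3-KO arrays (SE 0.20; 1.66-fold, 95% interval 1.22 to 2.27-fold), without overlap. Of all genes, 7.87% lay higher without overlap in that comparison. The limma adjusted p of 0.118 for Socs7 was the lowest of the members there. Without replicate 4 of the WT group the difference was 0.81 (adjusted p = 0.0949). Over the same arrays the mean log2 signal of mesothelial markers was -1.89 to 0.32 in WT and 1.46 to 1.98 in smSocs3-KO, a gap also present before infusion at -1.53 to 0.92 and 1.39 to 2.81. That of fibroblast markers was 5.62 to 5.93 and 6.09 to 6.53 at day 3; their part in the result was not tested.

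Taken over the family by representative probe, and with the dimmer Socs6 probe left aside, 0 of 8 members passed in the WT response, where 4.68% of genes did, 0 in the smSocs3-KO response (2.45%), 0 in the genotype comparison before infusion (0.0264%) and 0 in that at day 3 (1.11%). The limma fit gave 1, 1, 0 and 2 members an unadjusted p under 0.05 in these comparisons, against 26.6%, 23.8%, 4.40% and 16.2% of genes. Arrays before and after the challenge did not overlap for 4 members in WT: Socs5 and Socs6 lay higher, as did 20.7% of genes, and Socs4 and Socs7 lower, as did 14.6%. In smSocs3-KO they did not overlap for Socs3 and Socs2, both higher, as were 14.1% of genes. The median response of the 8 members was 0.02 in WT and 0.38 in smSocs3-KO, beside medians of -0.02 and -0.06 over all genes tested. These comparisons share arrays.

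The rest of the pathway was described from lists by role, and each count below is of the mean response, in which 13.6% of all genes rose and 9.18% fell. Without replicate 4 of the WT day 3 group, these shares were 15.8% and 12.3%. Of 6 SOCS box ligase partners tested, 2 rose and 0 fell, with that array and without it, namely the elongin subunits Tceb1 (0.58, SE 0.13) and Tceb2 (0.46, SE 0.10). The scaffold Cul5 (0.30, adjusted p = 0.0643) and the RING protein Rbx1 (0.29, adjusted p = 0.111) did not pass in limma. Of 12 other JAK-STAT inhibitors, 2 rose, near the share of all genes, and 0 fell, against 4 and 1 without replicate 4. Those that rose were the leukocyte phosphatase Ptpn6 (1.15, SE 0.29) and, named after its value was seen, the SUMO ligase Pias2 (0.41, SE 0.12). The largest response of the list was that of the interferon-induced Usp18 (1.45, SE 0.48), which did not pass in limma (adjusted p = 0.0509), nor did the phosphatase Ptpn2 (0.58, adjusted p = 0.0514) or the SUMO ligase Pias1 (-0.42, adjusted p = 0.0533).

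Among cytokines, 12 of 27 listed were tested, the rest being too dim, and 4 rose while 0 fell, against 13.6% and 9.18% of all genes; without replicate 4 the count was 6 and 0. Il6, the gp130 ligand that induces Socs3, was not well above background on any WT array before infusion and was on all others. It had log2 signals of 2.66, 3.51 and -3.41 on the WT arrays at day 3, low on the same replicate 4 as Socs3, and was at least 43.4-fold higher at day 3 than before (limma adjusted p = 0.0359), or at least 195-fold without replicate 4. On the smSocs3-KO arrays Il6 had log2 signals of -2.63, -1.35 and -1.86 before and 2.82, -0.40 and 3.61 at day 3 (difference 3.96, SE 1.55; adjusted p = 0.161). These 3 day 3 arrays fell in the same order for Il6 as for Socs3, whereas the smSocs3-KO arrays before infusion did not. A link between these genes was not tested. WT day 3 replicate 4 was low for other genes too, such as Il11 (-3.24, beside -0.82 and -0.05 on replicates 1 and 3). The gp130 ligand Il11 (1.98, SE 0.47), the growth factor Igf1 (1.90, SE 0.28) and, named after its value was seen, Cntf (0.61, SE 0.13) rose too, and Tslp had a response of 0.75 (limma adjusted p = 0.109).

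Of 27 cytokine receptors, 11 rose and 1 fell, against 13.6% and 9.18% of all genes and 13 and 1 without replicate 4. The one that fell was Il11ra1 (-0.45, SE 0.12), also named after its value was seen. The largest rises were those of the interleukin-4 receptor Il4ra (2.48, SE 0.46) and the shared and interleukin-3 beta chains Csf2rb (1.85, SE 0.34) and Csf2rb2 (1.40, SE 0.35), while Il2ra, not well above background on any WT array before infusion, did not pass (limma adjusted p = 0.108). Of 11 JAKs and STATs, 3 rose and 0 fell, against 5 and 0 without replicate 4 and beside 13.6% of all genes that rose. They were Stat2 (0.62, SE 0.15), Stat4 (0.59, SE 0.15) and, named after its value was seen, Jak1 (0.43, SE 0.12). Jak3 had a response of 0.47 (SE 0.25; limma adjusted p = 0.181), and Stat3, the main mediator of gp130 signals, had a mean response of 0.45 (SE 0.17; limma adjusted p = 0.0791).

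Of 28 tested genes known to be induced by STATs, 17 rose, against 13.6% of all genes, and 0 fell (19 and 0 without replicate 4), with a median of 0.92 beside -0.05 over all genes. They included Timp1 (3.33, SE 0.47), the chemokine Cxcl10 (3.30, SE 1.01) and the acute phase protein Hp (2.68, SE 0.54). Cxcl10 was well above background on 1 of 3 WT arrays before infusion and 2 at day 3, and on 2 of 3 smSocs3-KO arrays before. It passed the filter on dim probes only through the smSocs3-KO day 3 group, so the size of its response is uncertain. The acute phase protein Saa3, not well above background on any WT array before infusion, did not pass (limma adjusted p = 0.0579). Igf1 and Il4ra are also in the lists above. On the same scale, the Socs3 response of 1.78 lay between this median and the responses of Timp1, Cxcl10 and Hp.

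The genes whose signal followed Socs3 most closely over the 12 arrays, of 14118 genes with a RefSeq symbol, were Litaf, a lysosomal membrane protein gene (Pearson r 0.986, Spearman rho 0.965), the glycosyltransferase gene B4galt5 (r 0.985, rho 0.944) and the thromboxane synthase gene Tbxas1 (r 0.984, rho 0.902). After the group means were subtracted, r was 0.974, 0.943 and 0.962, and without the 2 arrays farthest from the Socs3 median it was 0.970, 0.972 and 0.971. The arrays share treatment groups and slides, and these 3 genes were picked as the highest values, so the coefficients are a description. Their mean responses were 0.94 (SE 0.21) for Litaf, 1.14 (SE 0.24) for B4galt5 and 0.87 (SE 0.20) for Tbxas1, each smaller than that of Socs3.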

How the data were processed

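The authors hybridised Cy3-labelled cRNA to Agilent mouse 8x60K arrays and deposited the Feature Extraction output (version 10.7.1.1 per the file headers, 9.5.1.1 per the submitters' processing notes), whose processed signal is a background-subtracted intensity. They also deposited a value table of linear intensity, quantile normalized over the arrays, which served as an alternative. From each array, control and outlier-marked spots were dropped, spots of a probe averaged, and log2 intensity taken relative to the 75th percentile. A probe was kept if every array of 1 or more groups measured it well above background, and the brightest stood for its gene. Means of 4 groups were fitted with limma 3.58.1 (R 4.3.3) with Benjamini-Hochberg adjustment over all 22769 genes at 0.05; a permutation test of 3 arrays against 3 cannot go below an exact p of 0.1. The code was tested on simulated data.

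All members were named, and up to 4 genes of each pathway list by size of the mean response, plus Il6 and Stat3. The members and lists were chosen with earlier results of these data known. Alternatives covered background correction, scaling, the dim filter, probe averaging, empirical Bayes options, slide, replicate number and each left-out array. The number of arrays limits the precision.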

Additional observations from a re-analysis of the deposited data

How the results depend on the processing

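Of 756 recomputed member results, 719 kept their direction and their side of the threshold, 25 turned in direction, 11 newly passed and 1 no longer passed; the causes were not tested. The mean Socs3 response passed under every alternative but the replicate block (1.48, adjusted p = 0.0771). The smSocs3-KO response of Socs3 newly passed after normexp with quantile normalization (2.07), with median scaling (2.50), with probes well above background on all 12 arrays and with trended, robust variances (2.30 each); single arrays left out gave 1.85 to 2.78, and 0.97 to 1.80 for the WT response. With slide as a block or within slide, the smSocs3-KO response of Socs1 turned to -0.22 and the Socs3 genotype difference before infusion to -0.21; the latter and the blocked day 3 genotype differences of Socs1 (-0.75) and Socs4 (0.17) rest on the 1 smSocs3-KO array on slide 1, as slide and genotype otherwise cannot be told apart. Median scaling moved the median mean response of all genes from -0.05 to 0.16 and turned the WT response of Cish (0.044), the day 3 genotype difference of Socs5 (0.075) and the mean responses of Socs1 (0.16) and Socs7 (0.055). Averaging all kept probes turned Socs6 in the WT (-0.056), smSocs3-KO (-0.37) and mean (-0.21) responses.

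Replicate numbers did not pair the arrays: over 11 same-numbered pairs, deviations from group means correlated at -0.40 to 0.46. The replicate block turned the Socs3 interaction (-0.12), the WT response of Socs2 (-0.0050), the smSocs3-KO response of Socs1 (-0.11) and the mean response of Cish (-0.037), and gave a smSocs3-KO response of Socs3 of 1.42. Left-out arrays turned some small responses: WT Cish ran from -0.37 to 0.032, WT Socs2 from -0.0082 to 0.44, smSocs3-KO Socs1 from -0.22 to 0.55, smSocs3-KO Socs7 from -0.059 to 0.34, mean Cish from -0.046 to 0.29 and mean Socs1 from -0.23 to 0.15. Over all alternatives the number of genes that passed ran from 0 to 3665 in the WT response, 2 to 1900 in the smSocs3-KO response, 0 to 647 in the day 3 genotype comparison and 894 to 6461 in the mean response. The dimmest Socs6 probes lay near background, which limits their values.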
